A study of Mus musculus with 2 samples.

Results

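The genes of the mitogen-activated protein (MAP) kinase cascade were followed through CUT&Tag peak lists made with an antibody against the small GTPase Rac1 in whole mouse retina. They were chosen by symbol alone, as MAP kinases (Mapk), their upstream kinases (Map2k, Map3k, Map4k), the kinases they activate (Mapkapk), the JIP scaffolds (Mapk8ip) and the dual-specificity phosphatases (Dusp), each followed by a number. The pattern took 4 of 1711 peaks in the retina after 1 week of chronic ocular hypertension (COH) and 15 of 3078 peaks in the untreated control retina. Those 19 peaks belonged to 15 genes, with 1 peak per gene and list. The RefSeq table holds 73 such genes, all protein-coding.

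In CUT&Tag, an antibody bound to chromatin tethers a transposase that cuts in sequencing adapters around the bound sites. COH and control retina gave 1 library each, and the wild-type mice were of the C57BL/6 strain and 7 weeks of age. Without replicates no test between the retinas is possible, and the 95% intervals of shares (exact binomial) reflect counting error alone. The sources used here do not state how ocular pressure was raised or how many retinas were pooled. Whole retina was used, and the share of nuclei that carry a site cannot be told apart from the signal per nucleus. Of 14 genes that mark rods, bipolar cells, Müller glia and ganglion cells, 0 had a COH peak and 1, Glul, had a control peak. Of all protein-coding genes, 5.38% and 10.8% did, so these counts show no lack of peaks at marker genes. The lists themselves do not identify the tissue.

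MAP kinase cascades relay a signal through tiers of kinases. MAP4Ks and small GTPases such as Rac1 and Cdc42 switch on MAP3Ks, these phosphorylate MAP2Ks, and these in turn phosphorylate the MAP kinases, which fall into ERK, p38 and JNK branches, while many DUSP phosphatases switch the MAP kinases off again. In retinal ganglion cells, JNK signalling below the MAP3Ks DLK (Map3k12) and LZK (Map3k13) is known as a response to axon injury.

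The JNK kinase genes Mapk8 and Mapk9 and the MAP3K gene Map3k3 were the members with overlapping peaks in the 2 retinas. Their promoters are shown because they carry these sites. Each line gives the 250 bases before a RefSeq start in the build GRCm38.p6, 5′ to 3′ on the strand of the gene. Capitals mark each GC box string (GGGCGG) and each CCAAT string, on either strand.
Mapk8 (chr14:33447159-33447408, minus strand): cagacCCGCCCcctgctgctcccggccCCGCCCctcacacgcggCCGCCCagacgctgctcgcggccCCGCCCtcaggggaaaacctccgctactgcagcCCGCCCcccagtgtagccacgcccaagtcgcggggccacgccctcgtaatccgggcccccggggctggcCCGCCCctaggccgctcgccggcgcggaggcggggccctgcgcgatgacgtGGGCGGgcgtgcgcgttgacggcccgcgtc
Mapk9 (chr11:49846501-49846750, plus strand): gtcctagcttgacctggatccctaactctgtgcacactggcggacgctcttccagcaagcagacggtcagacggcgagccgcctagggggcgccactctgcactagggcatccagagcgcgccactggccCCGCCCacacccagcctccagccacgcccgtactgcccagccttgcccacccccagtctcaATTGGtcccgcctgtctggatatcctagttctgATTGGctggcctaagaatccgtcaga
Map3k3 (chr11:106084337-106084586, plus strand): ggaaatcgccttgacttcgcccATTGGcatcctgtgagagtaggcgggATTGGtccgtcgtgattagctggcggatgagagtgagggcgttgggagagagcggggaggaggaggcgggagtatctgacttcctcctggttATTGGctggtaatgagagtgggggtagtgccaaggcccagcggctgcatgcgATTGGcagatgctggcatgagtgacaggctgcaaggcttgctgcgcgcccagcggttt

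The 3 promoters differ in make-up. The Mapk8 promoter is 79.2% G and C with 36 CpG dinucleotides and 7 GC box strings, against 63.6% and 14 CpG with 1 GC box string in Mapk9. The Map3k3 promoter is 60.0% G and C, holds 14 CpG and no GC box string, and has 4 CCAAT strings, whereas Mapk9 has 2 and Mapk8 none. The length from the start shown to the end of the gene equals the gene length in the peak lists for Mapk8 (69261 bp) and Mapk9 (39671 bp). The whole RefSeq genes are longer (69456 and 39694 bp). The starts shown for Mapk8 and Mapk9 thus lie inside these genes, as do some of the bases printed before them. For Map3k3 it differs (72070 bp in RefSeq, 70834 bp in the lists), and the start used by the lists may not be the one shown.

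Genes of the cascade carried a COH peak about as often as protein-coding genes in general and a control peak more often. In COH retina 4 of 73 members (5.48%, 1.51 to 13.4) had a peak, where 5.38% of 21900 protein-coding genes did. In control retina 15 of 73 (20.5%, 12.0 to 31.6) had a peak, where 10.8% of all protein-coding genes did. Both lists named 4 members, 5.48% of them against 3.53% of all genes, and overlapping peaks were found for 3, or 4.11% against 3.36%. The 4 members of the COH list were all among the 15 of the control list (100%, 39.8 to 100), an interval that includes the 65.5% of all COH genes that had a control peak. Conversely 4 of the 15 control members (26.7%, 7.79 to 55.1) had a COH peak, against 32.7% of all control genes. These shares are descriptions of 2 libraries, for members chosen with earlier results of these data known. A gene that is not in a list is not shown to be unbound.

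**Figure D1:**
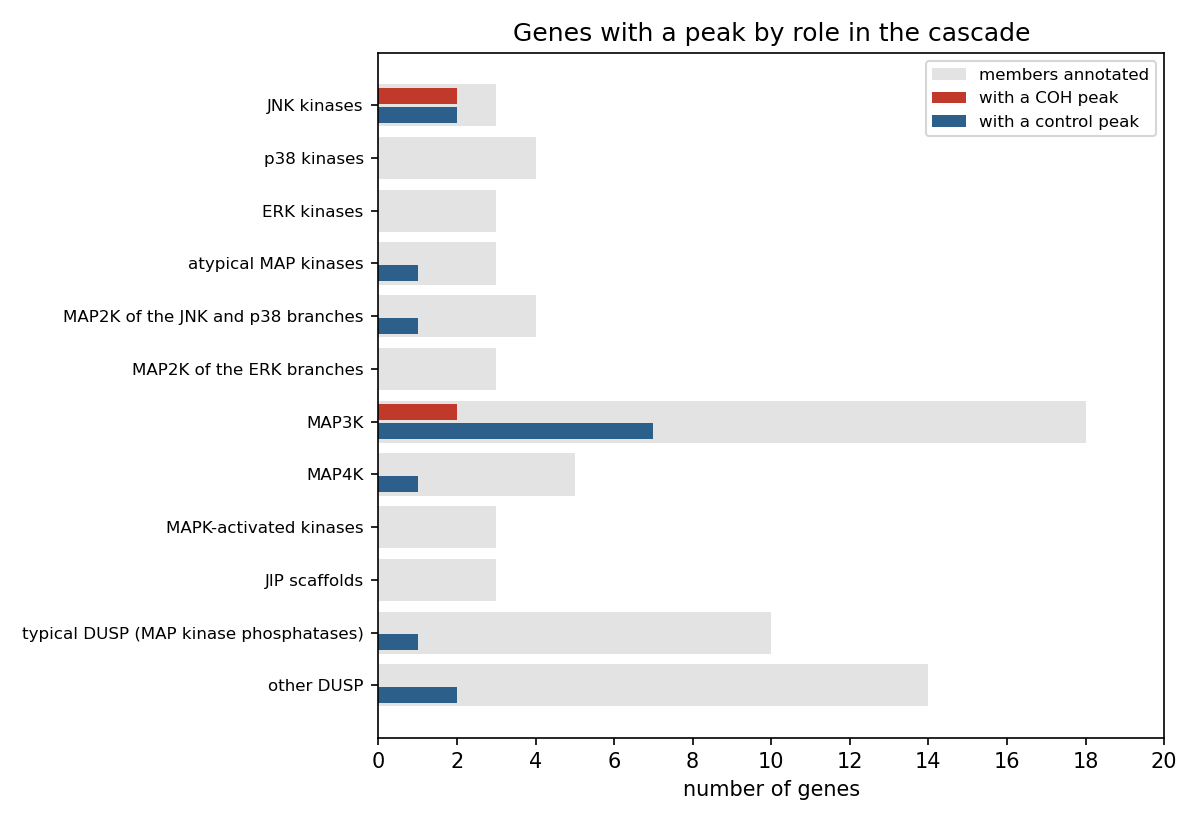
Number of MAP kinase cascade genes annotated (grey), with a COH peak (red) and with a control peak (blue), by role in the cascade. MAP3K genes hold 7 of the 15 control members, and the JNK kinases are the role with the same 2 genes in each list.

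Of the MAP kinases themselves, 2 of 13 had a COH peak and 3 of 13 a control peak, beside 5.38% and 10.8% of all protein-coding genes. The JNK branch held all but 1 of these MAP kinase genes with a peak. Mapk8 encodes JNK1 and Mapk9 JNK2, the widely expressed JNK kinases, whereas Mapk10, which encodes the largely neuronal JNK3, had no peak in either list. The 4 p38 genes (Mapk11, Mapk12, Mapk13 and Mapk14) and the ERK genes Mapk3 (ERK1) and Mapk7 (ERK5) also had none in either list. With so few genes a branch, these counts do not show that the branches differ.

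Mapk8 had the strongest peak of the cascade in both retinas. In COH retina its fold enrichment over background, as the authors' peak caller gave it, was 6.59, with a pileup of 22 at the summit and a -log10 q of 10.0. In control retina the fold was 6.78, with a pileup of 25 and a -log10 q of 11.7. The peak ranked 466 of 1711 in COH and 558 of 3078 in control by fold, so it was well inside the upper part of each list and not among its strongest sites. In the coordinates of the lists it lay at 33169014 to 33169494 on chromosome 14 in COH and at 33168839 to 33169455 in control, annotated as promoter in both. The summits lay 1 bp apart, at -75 bp from the transcription start site (TSS) in COH and -74 bp in control, where negative values are upstream. In the promoter shown, a GC box string ends at -76, next to these positions; the resolution of a summit is not known.

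Mapk9 had peaks that overlapped between the retinas, with summits on opposite sides of the TSS. The COH peak had a fold of 4.97, a pileup of 18 and a -log10 q of 5.66, and the control peak a fold of 6.24, a pileup of 24 and a -log10 q of 10.3. The COH fold was 0.797 of the control fold, the lowest ratio of the 4 genes in both lists. The summit lay at 120 bp downstream in COH and at -75 bp in control, 195 bp apart. All of the control peak (49737348 to 49737704 on chromosome 11) lay within the COH peak (49737288 to 49737873). A lncRNA gene, Gm36507, starts on the other strand within 1000 bp of the start shown for Mapk9, so the peak is not specific to Mapk9 by position.

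Mapk6, which encodes the atypical kinase ERK3, was the remaining MAP kinase with a peak, in control retina. Its promoter peak had a fold of 4.94, a pileup of 19 and a -log10 q of 6.10, with the summit at -140 bp. The nearest COH peak lay 514 kb away. The other atypical genes, Mapk4 and Mapk15, had no peak in either list.

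**Figure D2:**
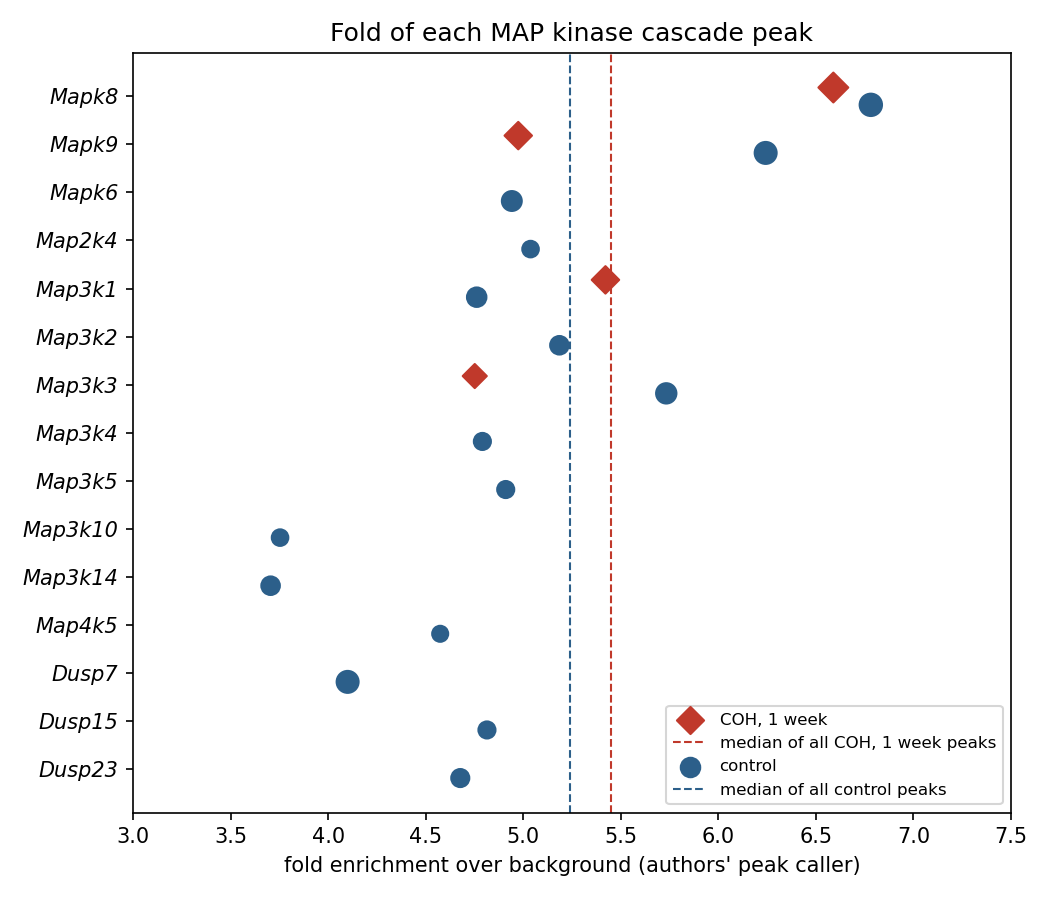
Fold enrichment over background of every MAP kinase cascade peak, by gene, for COH at 1 week (red diamonds) and control (blue circles), with symbol area rising with the pileup. Dashed lines are the medians of all peaks of each list, 5.45 in COH and 5.24 in control; Mapk8 lies above them in each list, and Mapk9 and Map3k3 in control.

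The MAP3K tier, the largest tier of kinases, held the most members with a control peak, 7 of 18. In COH 2 of 18 had a peak, as many genes as among the MAP kinases. Of all protein-coding genes, 5.38% had a COH peak and 10.8% a control peak. Map3k3, which encodes MEKK3, an activator of the ERK5 branch among others, had overlapping promoter peaks. The COH peak had a fold of 4.75, a pileup of 13 and a -log10 q of 3.86, and the control peak a fold of 5.73, a pileup of 20 and a -log10 q of 7.84. The summits lay 11 bp apart, at -271 bp in COH and -282 bp in control. Although its summit was nearly the same, the COH peak was longer, 826 bp against 650 bp in control (105974608 to 105975433 and 105974820 to 105975469 on chromosome 11).

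Map3k1, which encodes MEKK1, an activator of JNK signalling, had a peak in each list, at different places. The COH peak, at 111944975 to 111945292 on chromosome 13, was annotated as exon, with its summit at 241 bp downstream of the TSS. The control peak, at 111945706 to 111946161, lay in the promoter, with its summit at -321 bp. No base was shared and 413 bp lay between the peaks. The pileup was 18 in both, with a fold of 5.42 in COH and 4.76 in control, so Map3k1 was the member whose COH fold was the higher. The COH summit lay 6 bp inside the edge of its peak nearest to the TSS. A lncRNA gene, Gm15327, starts on the other strand within 1000 bp.

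The other 5 MAP3K genes had a control peak and none in COH. Map3k2, for MEKK2, a relative of MEKK3, had a fold of 5.19 and a pileup of 16, just under the median fold of the list. Map3k5, for ASK1, a kinase of the oxidative stress response held in check by thioredoxin, had a fold of 4.91. Map3k4, for MEKK4, which GADD45 proteins activate, had a fold of 4.79, and both peaks lay in 5' UTRs with a pileup of 13. Map3k10, for MLK2, a mixed-lineage kinase, and Map3k14, for NIK, which drives the non-canonical NF-kB pathway rather than a MAP kinase, had the lowest folds of the cascade, 3.75 and 3.70. The Map3k10 peak ranked 2944 and the Map3k14 peak 2960 of 3078.

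The injury kinases of the axon were not among them. Map3k12 (DLK) and Map3k13 (LZK) had no peak in either list, and neither had the other mixed-lineage kinase genes Map3k9, Map3k11 and Map3k21. Map3k6, Map3k7 (TAK1), Map3k8, Map3k15, Map3k19 and Map3k20 (ZAK) also had none. Only 5.38% of all protein-coding genes had a COH peak and 10.8% a control peak, so these absences are not a result about the kinases.

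In the MAP2K tier, next to the MAP3Ks, 0 of 7 genes had a COH peak and 1 of 7 a control peak. In the MAP4K tier the counts were 0 of 5 and 1 of 5. The shares for protein-coding genes as a whole were 5.38% in COH and 10.8% in control, so such small counts do not set these tiers apart. Of 7 MAP2K genes, Map2k4, which encodes MKK4, a kinase of JNK and p38, had a control promoter peak with a fold of 5.04, a pileup of 12 and a summit at 164 bp downstream of the TSS. Map2k7, the other JNK-activating member, had no peak, and nor did the p38 activators Map2k3 and Map2k6 or the ERK activators Map2k1, Map2k2 and Map2k5. Of 5 MAP4K genes, Map4k5, a germinal centre kinase upstream of JNK, had a control peak with a fold of 4.57 and the lowest pileup of the cascade, 11. That peak may equally be assigned to Atl1, which encodes the axonal GTPase atlastin-1 and starts on the other strand within 1000 bp. None of the 3 MAPK-activated kinase genes (Mapkapk2, Mapkapk3, Mapkapk5) or 3 JIP scaffold genes (Mapk8ip1, Mapk8ip2, Mapk8ip3) had a peak in either list.

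Of 24 DUSP genes, 0 had a COH peak and 3 a control peak, counts near the shares of all protein-coding genes (5.38% and 10.8%). Dusp7, a cytoplasmic phosphatase of ERK, was the member of the 10 typical MAP kinase phosphatases with a peak. It had a pileup of 24, as high as Mapk9, and a fold of 4.10, and its summit at -444 bp was the farthest from a TSS in the cascade. The pileup plus 1 divided by the fold, a measure of the background the caller used, was 6.10 at Dusp7 and 4.005 at Mapk9 in control, against a median of 3.55 for control peaks within 1000 bp of a TSS. Dusp15 (fold 4.81, in the 5' UTR) and Dusp23 (4.68, in the promoter), which encode small atypical phosphatases, had the other 2 peaks. The stress- and growth-induced Dusp1, Dusp4, Dusp5 and Dusp6 had none, like Dusp2, Dusp8, Dusp9, Dusp10 and Dusp16 of the typical class and 12 of 14 other DUSP genes.

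**Figure D3:**
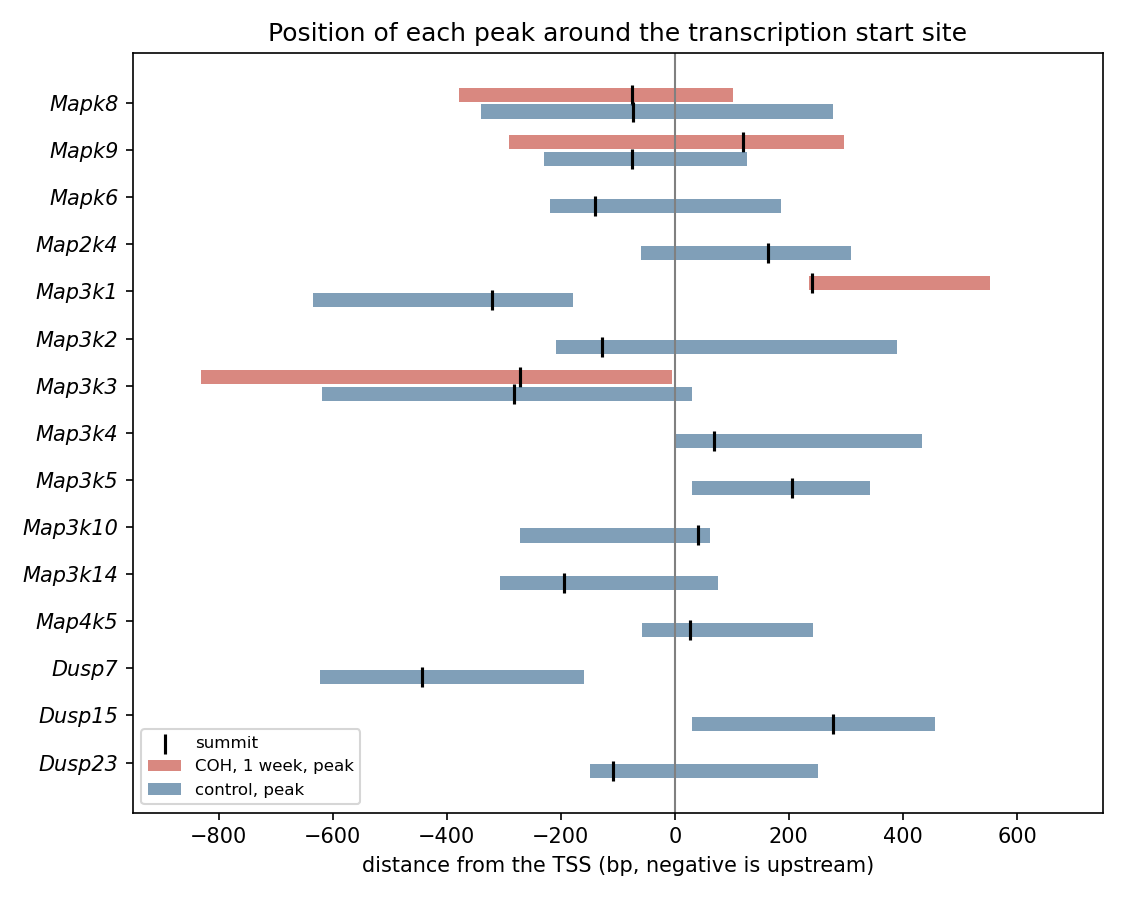
Extent of each peak in bp from the TSS given in the lists (negative is upstream), COH above control, with the summit as a black tick. The summits of Mapk8 coincide within 1 bp and those of Map3k3 within 11 bp, while the Map3k1 peaks lie on either side of the TSS.

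All 19 peaks lay within 1000 bp of a TSS by the distance the lists give, where 51.1% of all COH and 61.6% of all control peaks did. Of the control peaks of the cascade, 12 were annotated as promoter and 3 as 5' UTR. Of the 4 in COH, 3 were annotated as promoter and 1 as exon. Summits lay within 300 bp of the TSS for 4 of 4 COH and 13 of 15 control members, against 72.0% and 72.7% of all peaks within 1000 bp of a TSS; Map3k1 and Dusp7 were the exceptions in control. In control 9 of 15 summits were upstream of the TSS, against 39.9% of such peaks. No peak of the cascade lay in a cluster of at least 5 peaks within 100 kb.

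The peaks of the cascade were of moderate strength in both lists. The median fold was 5.20 over the 4 COH peaks and 4.81 over the 15 control peaks, against 5.45 and 5.24 over all peaks, and 5.33 and 5.18 over all peaks within 1000 bp of a TSS. The median pileup was 18 in COH and 16 in control, against 16 and 17 over all peaks. A -log10 q of at least 5 was reached by 3 of 4 COH and 7 of 15 control peaks, against 60.8% and 63.2% of all peaks.

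**Figure D4:**
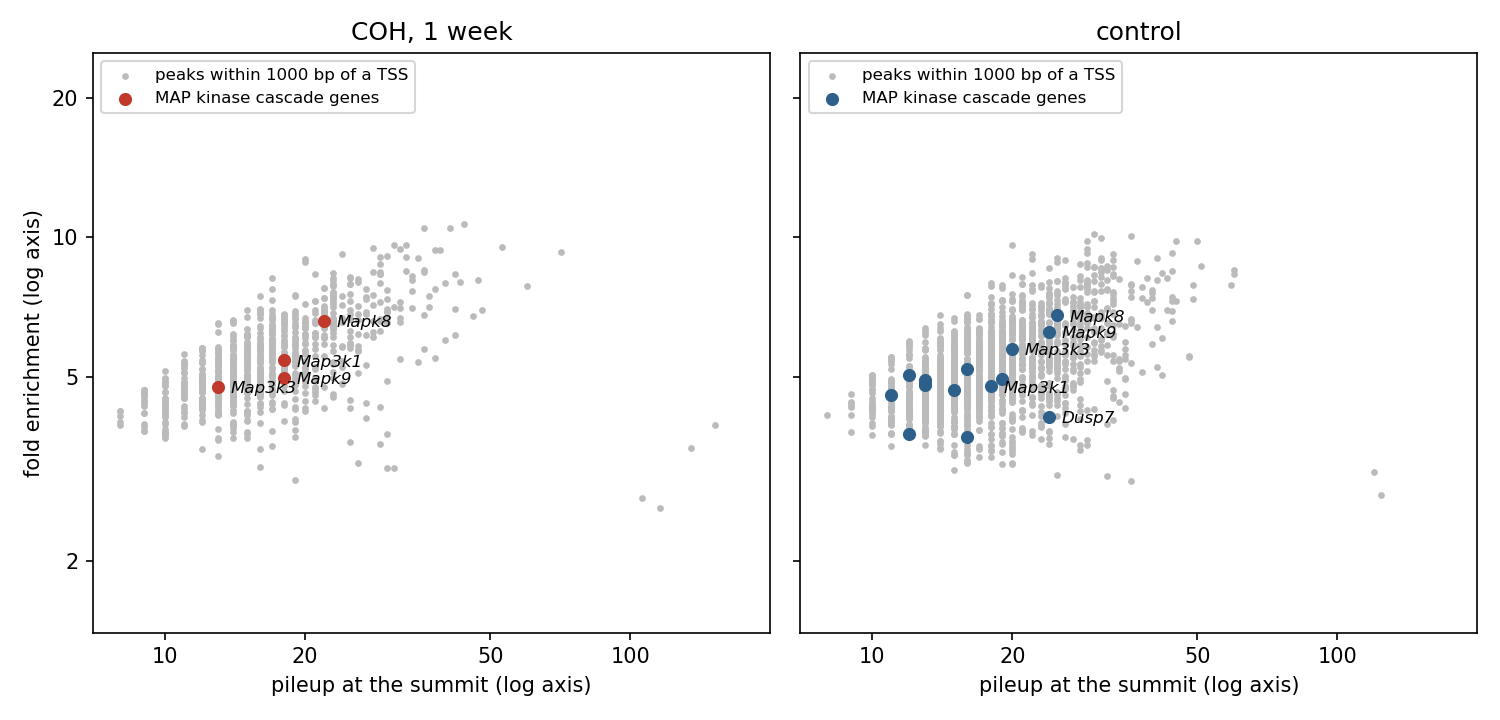
Fold enrichment against pileup at the summit (both axes log) for all peaks within 1000 bp of a TSS (grey) and those of the cascade (coloured), COH on the left and control on the right; 12 COH and 14 control peaks with a pileup above 200 lie beyond the axis. Mapk8, Mapk9 and Map3k3 are the 3 highest folds of the cascade in control, and Dusp7 lies low for its pileup.

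In the cascade, the control peaks that overlapped a COH peak were those with the higher folds. This describes few peaks and is not a rule. In the wider pathway described below, Atf4 (control fold 4.73) had an overlapping COH peak and Ripk1 (6.38) had none, with a control median of 5.24. The 3 control peaks above the median fold of the list were those of Mapk8, Mapk9 and Map3k3, and all 3 overlapped a COH peak. The 12 control peaks below it, with folds of 3.70 to 5.19, overlapped none. Among all control peaks within 1000 bp of a TSS, 40.9% (37.7 to 44.2) of 910 above the median fold overlapped a COH peak, and 22.3% (19.7 to 25.02) of 987 at or below it. For the 11 members found in control alone, the nearest COH peak lay 82.2 kb (Map3k10) to 1264 kb (Map2k4) away. Their -log10 q ranged from 2.46 to 6.10, with a lowest value in the whole list of 2.002. Peak strength and the length of the list move with the condition here, and their part in the difference between 4 and 15 was not tested.

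By median, members with a control peak had promoters richer in G and C and longer genes than the members without, with ranges that overlapped widely. RefSeq promoters were matched by symbol for 13 of the 15, all but Map3k2 and Dusp15. The starts used by the lists may differ. For Mapk6 the gene length was 40944 bp in the lists and 23235 bp in RefSeq. The promoters counted may thus not be those under the peaks. In these 13, the 250 bases before the RefSeq start had a median G and C content of 70.4% (54.0 to 85.2). The median was 63.0% (46.0 to 82.4) in 44 members without a peak. It was 65.2% in 1494 genes with a control peak within 1000 bp of a TSS and 55.2% in 17492 protein-coding genes. The median number of CpG was 26, against 17, 20 and 10 in the same order. The median gene length was 69.5 kb (2.21 to 209) for the 15 with a control peak and 19.4 kb (0.825 to 304) for the 58 without a peak. It was 34.5 kb for all genes with a control peak and 17.1 kb for all protein-coding genes. Of 24 DUSP genes 3 had a control peak, so family make-up differs between these groups of members, and its part was not tested. A start of another gene on the opposite strand lay within 1000 bp for 6 of 13 (46.2%), against 9 of 44 (20.5%), 26.6% and 15.7%. The members with such a neighbour were Map3k1, Map3k4, Map3k10, Map4k5, Mapk6 and Mapk9.

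Short strings for transcription factors were then counted in the same 250 bases, on both strands. The GC box GGGCGG occurred in 9 of 13 members with a control peak (69.2%), in 63.6% of members without a peak, in 75.2% of genes with a control peak near a TSS and in 42.7% of all genes. CCAAT, added after the promoters had been read, occurred in 5 of 13 (38.5%), against 36.5% of all genes. The AP-1 string TGANTCA occurred in Map3k10 alone, against 6.18% of all genes. The cyclic AMP response element TGACGTCA, the ETS string CCGGAAG, the NRF1 string GCGCATGCG, the YY1 string AAGATGGCG and the E-box CACGTG occurred in none of the 13, against 1.98%, 9.15%, 1.96%, 0.675% and 6.65% of all genes. In genes with a control peak near a TSS, the shares of these strings in the same order were 3.15%, 12.8%, 4.28%, 1.20% and 8.90%. AP-1 occurred in 2.68% of those genes and CCAAT in 40.4%. With 13 promoters, these counts are not a result about the members. Strings of these kinds do not overlap each other in the promoters shown, and the letters say nothing about occupancy.

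The wider pathway was read from 7 lists of genes that feed, carry or follow the cascade. Of 115 genes, 15 (13.0%) had a COH peak, 30 (26.1%) a control peak and 12 both, beside the 5.38% and 10.8% of all protein-coding genes given above. The lists were chosen with earlier results of these data known, so the higher shares are descriptions and no evidence about the pathway. For Rac and PAK genes, which link Rac1 to the cascade, 0 of 19 had a COH peak and 1 of 19 a control peak, that of the Rac effector kinase Pak1 (fold 6.07); Rac1 and Cdc42 had none.

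Inputs to the ERK branch had 2 of 21 genes in COH and 5 in control, beside 5.38% and 10.8% of all protein-coding genes. Rasa1, a Ras GTPase-activating protein, had overlapping promoter peaks with a fold of 6.54 in COH and 8.60 in control and summits at -211 and -209 bp. Shoc2, a scaffold that helps activate Raf, had a fold of 4.50 in COH and 5.33 in control. The adaptors Grb2 and Gab1 had control peaks with folds of 4.37 and 4.96 and none in COH.

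Adaptors and kinases that switch on JNK and p38 had 1 of 17 in COH and 7 of 17 in control. The shares of all protein-coding genes were 5.38% and 10.8%, and the genes were chosen with earlier results of these data known. Taok1, a MAP3K outside the symbol pattern, was the gene of this list with a peak in both retinas, with a fold of 4.75 and a pileup of 14 in COH against 8.94 and 33 in control. Ripk1 (6.38), a kinase of death-receptor signalling, and Nlk (4.64), a MAP kinase relative, had control peaks, as did Sh3rf1, Txn1, Gadd45a and Gadd45g. Scaffolds beyond JIP had 0 of 10 in COH and 3 of 10 in control, Arrb2, Mapkap1 and Iqgap1, the last with its summit 22540 bp from the TSS.

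Downstream kinases had 3 of 8 in each list, beside 5.38% of all protein-coding genes in COH and 10.8% in control. All these peaks lay over 1000 bp from the TSS given, so the gene names rest on the annotation of the lists. Rps6ka4, for the kinase MSK2, was named by 2 distal peaks in each list, with folds of 14.7 and 16.0 in COH against 19.3 and 18.4 in control, with summits 78231 and 27632 bp from the TSS in COH. Rps6ka1 had a distal peak in both, and Rps6ka5 in control and Mknk2 in COH had summits at 1706 and 1613 bp. The Rps6ka5 peak was annotated as 5' UTR and the Mknk2 peak as intron.

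Downstream transcription factors had 4 of 21 in COH and 8 of 21 in control, against 5.38% and 10.8% of all protein-coding genes. All 4 of the COH list had overlapping peaks near the TSS in both. Atf4, of the integrated stress response, had a fold of 6.26 in COH and 4.73 in control, and Mef2a, a p38 and ERK5 target, 5.69 and 4.54. Creb1 had 5.04 and 5.40, and Jund, an AP-1 subunit, 4.44 and 4.41. Fos and Ddit3 had control peaks with summits 114 and 140 bp from the TSS and none in COH. Mef2d and Trp53 were named by control peaks with summits 35508 and 12117 bp from the TSS. Jun, the classical JNK target, had no peak in either list, and nor had Atf2, Atf3 and Elk1.

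Brakes other than DUSPs had 5 of 19 in COH and 3 of 19 in control, where 5.38% and 10.8% of all protein-coding genes had a peak. The phosphatase genes Ppp2ca (fold 4.86 in COH, 5.90 in control), Ppm1b (5.03 and 5.59) and Ppm1a had overlapping peaks in both, Ppm1a at over 1000 bp from its TSS. Styx, a catalytically inactive relative of the DUSPs, had a COH promoter peak with a fold of 4.85 and none in control. The Spry2 peak in COH had its summit 294793 bp from the TSS, so the assignment rests on the nearest annotated gene.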

How the data were processed

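Per the labels, libraries were made with a Rac1 antibody. The submitters' processing notes name cutadapt 1.9.1, Bowtie2 and the build mm9; no peak caller or background library is named in the sources used here. Peaks come as 1 list per library. The signal (pileup at the summit), the ratio (fold enrichment) and the -log10 p and q values were deposited by the authors, as were annotation class, gene and TSS per the file headers; 2 column headings held a spreadsheet error and were read by place and values. Read depth is unknown. The lowest -log10 q was 1.82 in COH and 2.002 in control. Gene starts of the 15 members lay 46.8 to 301 kb from those in RefSeq GRCm38.p6 (0 within 100 bp), so the build of the lists is unsettled and coordinates are given as the lists have them; RefSeq was used for names, lengths, neighbours and promoters.

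Summit distances were computed from the summit and the TSS of each list, and peak lengths from start and end. Overlap was at least 1 bp. List genes were matched by symbol or unique synonym (1432 of 1593 COH and 2676 of 2893 control genes). Shares have exact Clopper-Pearson intervals. The promoter taken for a gene was that of its most upstream start in the promoter set. This can lie inside the RefSeq gene, as for Mapk8 and Mapk9. The overlap step was tested on simulated lists of 1000 peaks each and recovered 300 of 300 planted pairs. Members and lists were chosen with earlier results of these data known, and 1 pathway symbol (Zak) was dropped as a synonym of the member Map3k20. Some genes of the lists are not reported here by name. Every member with a peak is named; from the pathway lists, genes with peaks in both libraries and a few others are named, some beyond that rule after their values had been seen. Alternatives tried were stricter peaks, equal numbers of peaks, a distance limit, removal of clustered peaks and other overlap rules. Python 3.11.15, pandas 2.3.3, scipy 1.17.1 and matplotlib 3.10.9 were used.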

Additional observations from a re-analysis of the deposited data

How the results depend on the processing

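Each retina has 1 library, so the spread between replicates is unknown. The counts of members with a peak rest largely on weak control peaks. At a minimum -log10 q of 5, the count was 3 in COH and 7 in control (4 and 15 with all peaks). Above the median fold it was 1 in COH (Mapk8) and 3 in control (Mapk8, Mapk9 and Map3k3), with 1 member in both lists and 1 with overlapping peaks. With the control list cut to as many peaks as the COH list holds, 4 control members were left by fold (Mapk8, Mapk9, Map3k2, Map3k3). By pileup 6 were left, against 4 in COH under either ranking. The counts were thus equal by fold and unequal by pileup, and the part of list length was not tested. Members with overlapping peaks numbered 3 under a reciprocal overlap of 50%, and 4 when peaks within 1000 bp of each other counted, which adds Map3k1. The median fold was 5.42 in COH and 5.19 in control with a -log10 q of at least 5. Limiting peaks to 1000 bp from a TSS, or leaving out clustered peaks, changed none of these counts or medians. Neither step could change them, as all 19 peaks of the cascade lay within 1000 bp and none in a cluster. The number of reads is unknown, so the depth behind a missing peak cannot be given. No paired analysis was possible because each group has 1 library.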

Other observations

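Of the 3 members with overlapping peaks, Mapk8, Mapk9 and Map3k3 had COH folds of 0.972, 0.797 and 0.829 of the control fold. The Map3k1 folds (5.42 in COH, 4.76 in control) belong to different sites, with 413 bp between the peaks. Of 12 pathway genes with overlapping peaks, 3 had the higher fold in COH and 9 the lower, taking the highest overlapping peak of each gene in each list. For Rps6ka4 these were different sites in the lists. The same count over all genes with overlapping peaks was not made, so the counts are not a result about the pathway. The 3 were Atf4 (6.26 in COH, 4.73 in control), Mef2a (5.69 and 4.54) and Jund (4.44 and 4.41, a ratio of 1.007). The spread of such ratios between replicates was not measured.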
